A study of Mus musculus with 17 samples.

Results

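T cell rich AB12 tumors were set against T cell poor AB12 tumors, gene by gene. AB12 is a mesothelioma cell line of BALB/c origin, and the cells were placed in the peritoneum of 8-week-old female BALB/c mice, where they formed nodules that also held the immune and stromal cells of the host. The T cell rich side held untreated tumors of day 10 (d10, n = 5) and tumors of day 14 from mice given the anti CTLA-4 antibody (anti CTLA-4 d14, n = 3). The T cell poor side held untreated tumors of day 6 (d6, n = 3) and of day 14 (d14, n = 3). Each group held tumors of at least 3 mice, so in the groups with n = 3 each tumor came from a different mouse. For the 5 d10 tumors the sources used here do not state this. No transgene or deletion was given for any group. The antibody (clone 9D9, 200 µg per injection into the peritoneum) blocks CTLA-4, a receptor that holds back T cell activation. The study had called the groups rich or poor in part from T cell scores of these same libraries. A higher level of T cell genes on the rich side is therefore not independent evidence of its direction. For untreated tumors the study also reported flow cytometry, and it attributed the increase in T cells to CD8 T cells. Those cell measurements were not part of the data used here. A further 3 tumors of anti CTLA-4 d10 were in neither side.

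The comparison was the average of the 2 rich group means minus the average of the 2 poor group means, on the log2 scale. A gene was called at an adjusted p under 0.05 (edgeR's quasi-likelihood test, Benjamini-Hochberg over 18579 genes) and a change of more than 2-fold, which is a log2 fold change beyond 1. The genes described here are the called protein coding genes whose change also had the same sign in all 4 pairs of a rich with a poor group. There were 866 of these among 55450 annotated genes and 14650 tested protein coding genes. They comprised 755 genes higher in the rich tumors (5.15% of those tested) and 111 lower (0.758%). The same sign in 4 pairs was required by the rule and carries no weight of its own, and 3092 protein coding genes (21.1%) were higher in all 4 pairs on sign alone.

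CD8 T cells recognise peptides on MHC class I through the T cell receptor, whose signal passes through the CD3 chains and the kinases Lck and Zap70. Activated CD8 T cells kill by releasing perforin and granzymes, and on repeated stimulation they display inhibitory receptors such as PD-1. Type I interferon (IFN) acts on nearly every cell and switches on antiviral genes, many of which carry an interferon-stimulated response element (ISRE) in the promoter.

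T cell markers followed the labels. The summed level of the 7 genes of the CD3, CD4 and CD8 list ranged from 226 to 296 CPM (counts per 1000000 library counts, scaled by the trimmed mean of M values, TMM) in the d10 tumors and from 240 to 269 in the anti CTLA-4 d14 tumors. It ranged from 53.5 to 58.4 in the d6 tumors and from 91.4 to 165 in the d14 tumors. The d14 tumors therefore held more of these transcripts than the d6 tumors, and the poor side was not uniform. Such values come from whole tumors, and RNA levels alone cannot tell fewer T cells from less RNA per T cell. The flow cytometry of the study, which measured cells in untreated tumors, was not used here. The 14 libraries held between 46371577 and 96759833 counts. Levels of 393 pseudogenes and small RNA genes placed the libraries in 3 sets, with d6 and d10 replicates 1 to 3 in one, d10 replicates 4 and 5 with the anti CTLA-4 d10 tumors in another, and both day 14 groups in the third. The sets were partly confounded with the groups, and both anti CTLA-4 d14 minus d6 and d10 minus d14 fell wholly between sets. The study had removed genes with a significant batch effect between sequencing projects. No such filter and no term for the sets was used here. With d10 replicates 1 to 3 alone, where d10 shared a set with d6 and both day 14 groups shared theirs, 642 of the 755 higher genes (85%) and 101 of the 111 lower genes (91%) met the rule again. With d10 replicates 4 and 5 alone, 604 (80%) and 89 (80.2%) did. Both fits reused libraries that had chosen the genes, so high shares were in part built in. In the first fit d10 minus d14 and anti CTLA-4 d14 minus d6 still crossed sets. These shares therefore cannot separate the sets from the groups.

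The promoters of the lower genes differed most from other promoters in the ISRE. Promoters were read from RefSeq (GRCm38.p6) as 300 bases around each start, and 74 of the 111 lower genes and 546 of the 755 higher genes had at least 1. The ISRE was searched on both strands as GAAA, any 2 bases and GAAA again. It occurred in 27 of the 90 promoters of lower genes (30%), in 2.73% of the promoters of higher genes, in 3.21% of those of all tested protein coding genes and in 3.44% of all 32851 promoters in the table. Among lower genes with a mean of at least 5 CPM the share was 43.4%. It was 52.6% for the lower genes on the type I IFN list used below. For those of at least 5 CPM that were not on that list it was 38.2% (13 of 34 promoters). Genes off the list included others described below with the IFN genes, such as Ddx60. A match is a description of these letters and not a bound site. The 250 bases before the start of 5 lower genes with a match are shown, since these genes carry the description of the lower side. Ifit3 (chr19:34583279-34583528, plus strand) and Ifit1 (chr19:34640639-34640888, plus strand) encode antiviral proteins that bind viral RNA. Rsad2 (chr12:26456453-26456702, minus strand) encodes viperin, and Oas1g (chr5:120887614-120887863, minus strand) belongs to the sensors of double-stranded RNA. Ddx60 (chr8:61927837-61928086, plus strand) encodes a helicase of antiviral defence. Each sequence reads 5′ to 3′ on the strand of the gene and ends at the base before the start. Capitals mark the ISRE matches on either strand, and in Oas1g 2 matches overlap.
Ifit3: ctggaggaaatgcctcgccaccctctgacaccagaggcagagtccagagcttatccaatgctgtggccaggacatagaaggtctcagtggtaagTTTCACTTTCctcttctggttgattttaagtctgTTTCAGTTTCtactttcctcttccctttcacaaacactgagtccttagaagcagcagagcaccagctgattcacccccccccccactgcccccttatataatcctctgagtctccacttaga
Ifit1: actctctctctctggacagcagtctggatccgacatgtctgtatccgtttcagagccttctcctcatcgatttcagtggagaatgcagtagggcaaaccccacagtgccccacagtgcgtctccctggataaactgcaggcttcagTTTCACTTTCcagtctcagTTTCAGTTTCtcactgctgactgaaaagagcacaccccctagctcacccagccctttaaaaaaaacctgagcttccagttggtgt
Rsad2: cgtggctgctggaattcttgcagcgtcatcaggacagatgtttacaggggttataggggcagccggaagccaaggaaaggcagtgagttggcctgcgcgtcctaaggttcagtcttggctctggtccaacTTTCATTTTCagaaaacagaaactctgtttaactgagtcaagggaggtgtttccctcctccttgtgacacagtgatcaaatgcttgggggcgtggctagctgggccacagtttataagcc
Oas1g: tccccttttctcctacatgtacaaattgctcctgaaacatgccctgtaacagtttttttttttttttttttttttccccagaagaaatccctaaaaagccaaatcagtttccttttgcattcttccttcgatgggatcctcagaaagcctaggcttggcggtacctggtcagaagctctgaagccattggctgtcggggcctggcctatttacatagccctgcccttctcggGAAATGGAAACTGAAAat
Ddx60: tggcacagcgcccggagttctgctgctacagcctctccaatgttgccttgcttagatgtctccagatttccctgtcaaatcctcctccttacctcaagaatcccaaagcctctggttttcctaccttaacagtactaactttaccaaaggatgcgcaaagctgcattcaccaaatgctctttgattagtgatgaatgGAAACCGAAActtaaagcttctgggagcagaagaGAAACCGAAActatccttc
In Ifit3 the 2 matches began 156 and 122 bases before the start, and in Oas1g they began 18 and 12 bases before it.

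For the higher genes no motif searched was as far above the other promoters. TGNGGT is a loose pattern that includes the core bound by RUNX factors of T cells and also other sequences. It occurred in 48.9% of the promoters of higher genes, in 61.1% of those of lower genes and in 43.5% of those of all tested protein coding genes. GGAAA, the core bound by NFAT, which can share bases with an ISRE match, occurred in 54.2%, 76.7% and 59.2% of them. TGANTCA, bound by AP-1, occurred in 6.74%, 21.1% and 5.9%, and CCGGAAG, bound by ETS factors, occurred in 4.45%, 7.78% and 15.4%. GGTGTNA, bound by T-box factors, occurred in 11.2%, 11.1% and 8.81%, and TTCNNNGAA, bound by STAT dimers, in 8.18%, 7.78% and 7.16%. The promoters of Lck (chr4:129573642-129573891, minus strand, 1 of 2 starts) and Nkg7 (chr7:43436888-43437137, plus strand) are shown for the higher side. Capitals mark TGNGGT matches on either strand, not all of which are RUNX cores.
Lck: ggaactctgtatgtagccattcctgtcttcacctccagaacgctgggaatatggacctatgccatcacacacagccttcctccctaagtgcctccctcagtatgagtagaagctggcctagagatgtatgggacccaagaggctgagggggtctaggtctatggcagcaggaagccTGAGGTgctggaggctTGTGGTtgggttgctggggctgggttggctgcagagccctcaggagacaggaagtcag
Nkg7: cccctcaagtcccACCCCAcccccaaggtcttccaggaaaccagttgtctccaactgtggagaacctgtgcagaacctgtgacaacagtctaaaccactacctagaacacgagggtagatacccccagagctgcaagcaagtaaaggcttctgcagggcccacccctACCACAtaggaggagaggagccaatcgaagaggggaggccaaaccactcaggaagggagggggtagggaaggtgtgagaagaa

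The genes of the T cell receptor complex were higher in the rich tumors. Of the 7 genes of the CD3, CD4 and CD8 list, 6 were called higher and met the rule, with a list median of 1.51 against -0.009 over all tested genes. Over all tested protein coding genes, 5.97% were called higher. Cd8a (chromosome 6, 71373427 to 71379173, GRCm38), a chain of the CD8 coreceptor, stood at 56.8, 68.4, 60.8, 78.3 and 69.0 CPM in the d10 tumors and at 76.5, 82.0 and 70.5 CPM in the anti CTLA-4 d14 tumors. It stood at 7.29, 7.68 and 7.33 CPM in the d6 tumors and at 42.1, 27.6 and 51.3 CPM in the d14 tumors. All 8 rich tumors were above all 6 poor tumors, and the d14 tumors lay much nearer to the rich tumors than the d6 tumors did. The average log2 fold change of Cd8a was 2.04 ± 0.13 (SE; adjusted p = 9.5e-07, edgeR). It was 3.16 for d10 minus d6 but 0.72 for d10 minus d14. Cd3e (chromosome 9, 44998740 to 45009627), a signaling chain of the receptor, stood between 53.7 and 63.2 CPM (median 56.7) in the d10 tumors and at 56.2, 55.7 and 56.6 CPM in the anti CTLA-4 d14 tumors. It stood at 13.6, 12.8 and 14.5 CPM in the d6 tumors and at 30.0, 21.3 and 36.0 CPM in the d14 tumors. The 2 sides of Cd3e did not overlap either, and its log2 fold change was 1.51 ± 0.10 (adjusted p = 1e-06, edgeR). Cd8b1 (2.14), Cd3g (1.57), Cd3d (1.48) and Cd247 (1.27), the other chains on the list, all passed the test in every pair.

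Cd4, the coreceptor of helper T cells, was the list's exception. It stood at 10.8, 9.11 and 10.1 CPM in the d6 tumors, at 3.19, 2.08 and 4.57 CPM in the d14 tumors, between 5.68 and 10.1 CPM (median 7.2) in the d10 tumors and at 9.02, 10.2 and 8.12 CPM in the anti CTLA-4 d14 tumors. The rich tumors thus lay above the d14 tumors and within or below the d6 range. Its average log2 fold change was 0.53 ± 0.17 (adjusted p = 0.027, edgeR), short of 2-fold, and was -0.27 without the d14 tumors.

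Signaling genes behind the receptor were higher too. Of 26 tested genes on the proximal signaling list, 18 were called higher, 18 met the rule and 16 passed the test in every pair, and the list median was 1.22. Lck, the kinase that phosphorylates the CD3 chains, stood between 38.5 and 63.3 CPM in the d10 tumors, at 48.9, 45.0 and 39.2 CPM in the anti CTLA-4 d14 tumors, between 19.0 and 21.1 CPM in the d6 tumors and between 15.4 and 24.8 CPM in the d14 tumors. For Lck the 2 poor groups overlapped each other and lay below every rich tumor, unlike Cd8a. Its log2 fold change was 1.18 ± 0.13 (adjusted p = 3.9e-05, edgeR), and it lay between 1.07 and 1.28 in the 4 pairs. Zap70, the kinase recruited to the CD3 chains, was higher by 1.42, the adaptor Lat by 1.26, and Themis, which tunes receptor signals in thymocytes, by 1.59. Thy1, a surface protein of T cells that some fibroblasts also carry, was higher by 1.46. The costimulatory receptors Icos (1.27), Cd27 (1.43) and Cd28 (1.1003) and the receptors Cd6 (1.35), Cd5 (1.08) and Cd2 (1.03) also met the rule. Those near the threshold rested on single libraries, since the log2 fold change was 0.92 for Cd2, 0.98 for Cd5 and 0.97 for Cd28 without d14 replicate 2, and both Cd2 and Cd5 went under the threshold without d10 replicate 4, as did Cd2 without anti CTLA-4 d14 replicate 1.

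**Figure D1:**
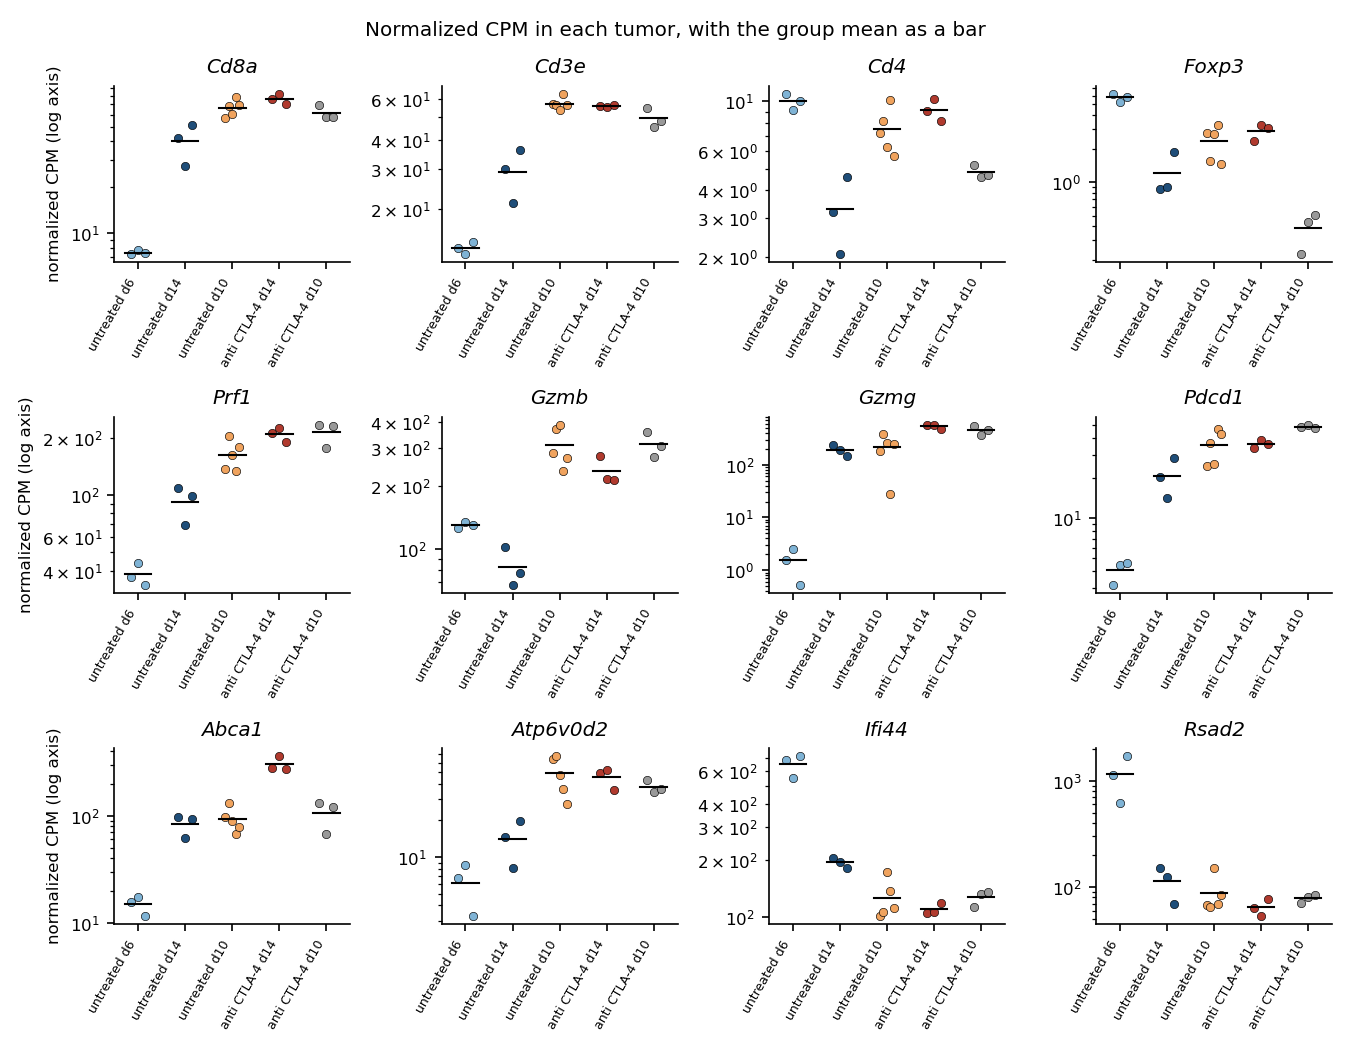
Levels of genes from each group of the report in single tumors, on log axes in normalized CPM, with 1 point per tumor and a bar at the group mean, for 12 genes in the 5 groups. In Cd8a and Prf1 all 8 rich tumors lie above all 6 poor tumors, in Cd4 the d14 tumors lie lowest of the 14, and in Rsad2 the d6 tumors lie apart from all others.

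Part of the killing machinery was higher in the rich tumors as well. Of 19 cytotoxic effector genes, 9 were called higher and all 9 passed the test in every pair, with a list median of 0.86. Of the 19, 4 had a negative value. The list summed to 1424 to 1493 CPM in the d6 tumors and 870 to 1088 CPM in the d14 tumors. In the d10 tumors it summed to 1468 to 2338 CPM and in the anti CTLA-4 d14 tumors to 1398 to 1664 CPM. Both rich groups thus overlapped the d6 tumors in this sum. Prf1 (chromosome 10, 61297833 to 61304680), which encodes the pore-forming perforin, stood at 136, 205, 162, 133 and 179 CPM in the d10 tumors and at 212, 224 and 190.1 CPM in the anti CTLA-4 d14 tumors. It stood at 37.2, 43.6 and 33.7 CPM in the d6 tumors and at 108, 69.7 and 98.5 CPM in the d14 tumors. The rich and poor tumors of Prf1 did not overlap, and the log2 fold change was 1.64 ± 0.13 (adjusted p = 2.4e-06, edgeR). Gzmb (chromosome 14, 56258838 to 56262260), the granzyme that cleaves caspases in target cells, stood between 235 and 386 CPM in the d10 tumors, at 275, 216 and 213 CPM in the anti CTLA-4 d14 tumors, at 126, 135 and 131 CPM in the d6 tumors and at 102, 67.9 and 77.5 CPM in the d14 tumors. Gzmb again did not overlap, and here the d14 tumors were the lower of the poor groups. Its log2 fold change was 1.38 ± 0.13 (adjusted p = 1.4e-05, edgeR). Gzmk, a granzyme of memory-like CD8 T cells, was higher by 1.92, the granule protein Nkg7 by 1.54, the death ligand Fasl by 1.15, the protease Ctsw by 1.65 and the protease inhibitor Cst7 by 1.27. The chemokines Ccl5 (2.14) and Ccl4 (1.14), which activated T cells secrete, completed the 9.

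The granzymes C to G and N, which lie beside Gzmb on chromosome 14, behaved differently from the rest. All 6 were called higher, but only 4 met the rule and only Gzmc passed the test in every pair. Gzmg (56156582 to 56159579) stood at 1.58, 2.56 and 0.526 CPM in the d6 tumors, at 238, 189 and 148 CPM in the d14 tumors, at 182, 379.6, 254, 28.2 and 248 CPM in the d10 tumors and at 566, 561 and 473 CPM in the anti CTLA-4 d14 tumors. The d14 tumors overlapped the d10 tumors and stood far above the d6 tumors, so that its average log2 fold change of 4.30 ± 0.49 (adjusted p = 4e-05, edgeR) rested on the d6 tumors. The log2 fold change was 7.13 for d10 minus d6 and 0.18 for d10 minus d14 (adjusted p = 0.81, edgeR). Gzmd (3.49) met the rule by the same narrow margin, with 0.07 for d10 minus d14, whereas Gzmf and Gzme were left out of it by -0.07 and -0.09 in that pair. These genes are close copies, and reads that fit more than 1 of them were not counted, so the levels of single granzymes are uncertain. Gzmn had a mean of at most 0.425 CPM in any group and is given no fold change. Without the d6 tumors only Gzmc remained called, as 1 of the 6.

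Granule release and NK type receptors were in part higher. Sytl2 (2.32), Sytl1 (1.63) and Sytl3 (1.21), which tether secretory granules to membranes and were singled out after their values were seen, all passed the test in every pair. Of 17 tested NK receptors, 5 were called higher and 4 met the rule, with a median of 0.80. Klrc1, the inhibitory NKG2A receptor shared by NK and CD8 T cells, stood between 0.934 and 1.17 CPM in the d6 tumors, between 7.39 and 12.03 CPM in the d14 tumors, between 9.68 and 12.04 CPM in the d10 tumors and between 14.0 and 16.4 CPM in the anti CTLA-4 d14 tumors. The d10 and d14 tumors of Klrc1 overlapped, and its average log2 fold change of 1.98 ± 0.12 (adjusted p = 9.5e-07, edgeR) was 0.44 without the d6 tumors. Klrd1, its partner chain, showed the same order with an average of 1.66 and 0.33 for d10 minus d14. Klrg1 (1.35), a receptor of late effector cells, and Cd226 (1.22), an activating receptor, passed the test in every pair.

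Inhibitory receptors were in part higher. Of 13 tested, 5 were called higher, 4 met the rule and 3 passed the test in every pair, with a median of 0.95. Pdcd1 (chromosome 1, 94038305 to 94052553), which encodes PD-1, stood at 24.7, 36.8, 25.6, 47.2 and 43.3 CPM in the d10 tumors and at 34.0, 38.6 and 36.0 CPM in the anti CTLA-4 d14 tumors. It stood at 3.16, 4.43 and 4.64 CPM in the d6 tumors and at 20.3, 14.2 and 28.4 CPM in the d14 tumors. The highest d14 tumor lay above the 2 lowest d10 tumors, and the log2 fold change was 1.95 ± 0.19 (adjusted p = 1.7e-05, edgeR). Lag3, which binds MHC class II, stood between 20.7 and 42.8 CPM in the d10 tumors, between 27.8 and 34.7 CPM in the anti CTLA-4 d14 tumors, between 12.7 and 15.6 CPM in the d6 tumors and between 8.37 and 22.7 CPM in the d14 tumors. Its log2 fold change was 1.07 ± 0.21 (adjusted p = 0.0016, edgeR) and fell under the threshold, to 0.92, without d14 replicate 2. Cd96 (1.73), a receptor for nectin-like ligands, passed in every pair, and Cd101 (1.18) met the rule. Havcr2, which encodes TIM-3, was called at 1.65 but did not meet the rule. It stood between 5.41 and 6.98 CPM in the d6 tumors, at 55.5, 47.4 and 67.2 CPM in the d14 tumors, between 33.3 and 57.0 CPM in the d10 tumors and between 74.8 and 86.2 CPM in the anti CTLA-4 d14 tumors. The d14 tumors therefore lay at or above most d10 tumors, with -0.35 for d10 minus d14 (adjusted p = 0.11, edgeR). Tigit (0.66) did not reach 2-fold, nor did the exhaustion factor Tox (0.59). Ctla4, the target of the antibody, had at most 2 counts in any library, which is too few for a comparison. Its annotated span overlaps the pseudogene Rpl18-ps1, and whether reads were lost to that overlap was not tested.

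Cytokine and regulatory genes were mostly outside the rule. Ifng, the main cytokine of CD8 T cells, stood at 33.4, 22.6 and 29.7 CPM in the d6 tumors, at 8.37, 4.38 and 6.35 CPM in the d14 tumors, at 20.5, 24.8, 18.2, 10.6 and 9.33 CPM in the d10 tumors and at 14.2, 14.2 and 10.5 CPM in the anti CTLA-4 d14 tumors. The rich tumors lay between the poor groups, above d14 and mostly below d6, and the average was 0.13 ± 0.22 (adjusted p = 0.69, edgeR). Foxp3, the factor of regulatory T cells, had the same order, with 5.28 to 6.20 CPM in the d6 tumors, 0.874 to 1.86 CPM in the d14 tumors, 1.46 to 3.28 CPM in the d10 tumors and 2.34 to 3.26 CPM in the anti CTLA-4 d14 tumors. Its average was -0.02 ± 0.23 (adjusted p = 0.95, edgeR), with 0.95 for d10 minus d14 and -1.29 for d10 minus d6. None of the 13 tested regulatory T cell genes was called by edgeR's quasi-likelihood test or by DESeq2, though 9 were higher at an adjusted p under 0.05 by edgeR, and the same number at an unadjusted p under 0.05. Of 23 cytokines and receptors 5 were called higher, among them Il7r (1.79), the survival receptor for IL-7, Il2rb (1.18) and Il21r (1.08, or 0.99 without d14 replicate 2). Il2ra (0.86) and Tnfrsf9 (0.90), both induced on activation, did not reach 2-fold.

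Some receptors that guide T cells into tissue were higher. Of 14 homing genes 4 were called higher, with a median of 0.68. Cxcr6 (chromosome 9, 123806475 to 123811760), the receptor for CXCL16, stood at 36.1, 50.9, 39.0, 53.2 and 49.4 CPM in the d10 tumors, at 56.5, 57.2 and 45.7 CPM in the anti CTLA-4 d14 tumors, between 3.64 and 4.91 CPM in the d6 tumors and at 26.2, 17.5 and 35.9 CPM in the d14 tumors. The 2 sides were apart by the narrowest margin, the highest d14 tumor standing just below the lowest d10 tumor, and the log2 fold change was 2.21 ± 0.16 (adjusted p = 1.5e-06, edgeR). Cxcl16, its ligand on myeloid cells, was higher by 1.13, and Cxcl12, a stromal chemokine, by 1.48. Cxcr3, the receptor for IFN-induced chemokines, was higher by 1.62, and the integrin chain Itgal by 1.13. Cx3cr1, a receptor of effector cells and monocytes, was higher by 2.04, with 0.01 for d10 minus d14. Selplg (1.02), a selectin ligand, was 0.89 without d14 replicate 2 and also went under the threshold without d6 replicate 1, d10 replicate 2, d10 replicate 4 or anti CTLA-4 d14 replicate 1. Of 18 T cell transcription factors 4 were called, among them Tbx21 (1.37), the factor of type 1 effector cells, and Bcl11b (1.41), and of 11 naive T cell genes 3 were, among them Lef1 (1.29). Of the Gimap family of lymphocyte GTPases, looked at after the values were seen, 6 of 8 were called, for instance Gimap3 (1.32), Gimap1 (1.17) and Gimap4 (1.09).

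Myeloid and lipid genes were among the 12 largest changes on the higher side. The summed level of the 24 macrophage markers ranged from 9120 to 14244 CPM in the d10 tumors and from 12224 to 14439 CPM in the anti CTLA-4 d14 tumors, against 8265 to 9228 CPM in the d6 tumors and 8596 to 9468 CPM in the d14 tumors. Of 23 tested, 5 were called higher, among them Csf1r (1.02), the growth factor receptor of macrophages, and Lyz2 (1.04), which both lost the call without d14 replicate 2, at 0.90 and 0.93. Csf1r also lost it without d10 replicate 2, d10 replicate 4 or anti CTLA-4 d14 replicate 2. Atp6v0d2 (chromosome 4, 19876841 to 19922605), a subunit of the proton pump of lysosomes, stood at 64.7, 67.9, 47.6, 36.4 and 27.5 CPM in the d10 tumors and at 49.0, 52.0 and 35.6 CPM in the anti CTLA-4 d14 tumors. It stood at 6.67, 8.52 and 3.28 CPM in the d6 tumors and at 14.6, 8.15 and 19.8 CPM in the d14 tumors. All rich tumors were above all poor ones, and the log2 fold change was 2.33 ± 0.28 (adjusted p = 5.1e-05, edgeR). Abca1 (chromosome 4, 53030787 to 53159895), which exports cholesterol, stood at 282, 362 and 275 CPM in the anti CTLA-4 d14 tumors, between 68.0 and 131 CPM in the d10 tumors, between 61.5 and 96.8 CPM in the d14 tumors and between 11.6 and 17.2 CPM in the d6 tumors. For Abca1 the d10 and d14 tumors overlapped and the anti CTLA-4 d14 tumors stood apart, with 2.26 ± 0.17 on average (adjusted p = 1.7e-06, edgeR), 0.15 for d10 minus d14 and 1.87 for anti CTLA-4 d14 minus d14. Apoe (1.72), a lipid carrier, had a like order, and Abcg1 (1.33) and Mylip (1.56), which degrades the LDL receptor, passed the test in every pair. These belong to a list of known targets of the liver X receptors that was drawn up after the values were seen, of which 5 of 13 were called.

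Genes of antigen presentation changed in part. Of 12 class II genes 3 were called, with a median of 0.89, and of 19 class I genes 1 was, with a median of -0.12. H2-Ab1, a class II chain, stood between 809.8 and 1581 CPM in the d10 tumors, at 953, 989 and 818 CPM in the anti CTLA-4 d14 tumors, between 537 and 547 CPM in the d6 tumors and between 256 and 598 CPM in the d14 tumors. The 2 sides did not overlap, and the log2 fold change was 1.14 ± 0.18 (adjusted p = 0.00032, edgeR). Cathepsin S (Ctss), which trims the class II chaperone, was higher by 1.38 and stood between 1138 and 2864 CPM in the rich tumors against 405 to 942 CPM in the poor tumors. The lysosomal proteases Ctsd (1.09) and Ctsh (1.17) passed in every pair as well. Other myeloid genes that met the rule were Nos2 (1.11), which makes nitric oxide, and F13a1 (1.499), a transglutaminase of monocytes. Clec4d (1.96), a lectin of neutrophils and monocytes, and the phagocytosis checkpoint Sirpa (1.29) met it too. Nos2 went just under the threshold without d14 replicate 2. Of 16 neutrophil markers 4 were called, and their summed level ranged from 726 to 891 CPM in the anti CTLA-4 d14 tumors, from 340.5 to 831 CPM in the d10 tumors, from 319 to 514 CPM in the d6 tumors and from 361 to 370.3 CPM in the d14 tumors.

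Of the ligands of inhibitory receptors, 2 of 14 were called higher. Pdcd1lg2, which encodes the second ligand of PD-1, was higher by 1.15 and Vsir, which encodes VISTA, by 1.02. The call of Vsir went under the threshold without d14 replicate 2, at 0.91, and without any of d6 replicate 1, d10 replicates 2 and 4, and anti CTLA-4 d14 replicate 1. The matrix was represented by few genes. Of 24 collagens and matrix genes 1 was called, the adhesion protein Tnc (1.52), which was 0.05 for d10 minus d14. Of 16 fibroblast markers 3 were called, among them Pdgfra (1.30). Mmp2 (1.73), Mmp12 (1.53) and Mmp19 (1.21) were among the 7 of 17 matrix metalloproteinases called, a family looked at after the values were seen. C3 (1.41), the central complement component, and the protease inhibitor A2m (2.45) were also higher. A2m met the rule through 1 tumor, d10 replicate 4 at 26.7 CPM. The other d10 tumors stood between 6.47 and 8.81 CPM against 6.91 to 10.2 CPM in the d14 tumors, and d10 minus d14 was 0.46 with that tumor and -0.09 without it.

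**Figure D2:**
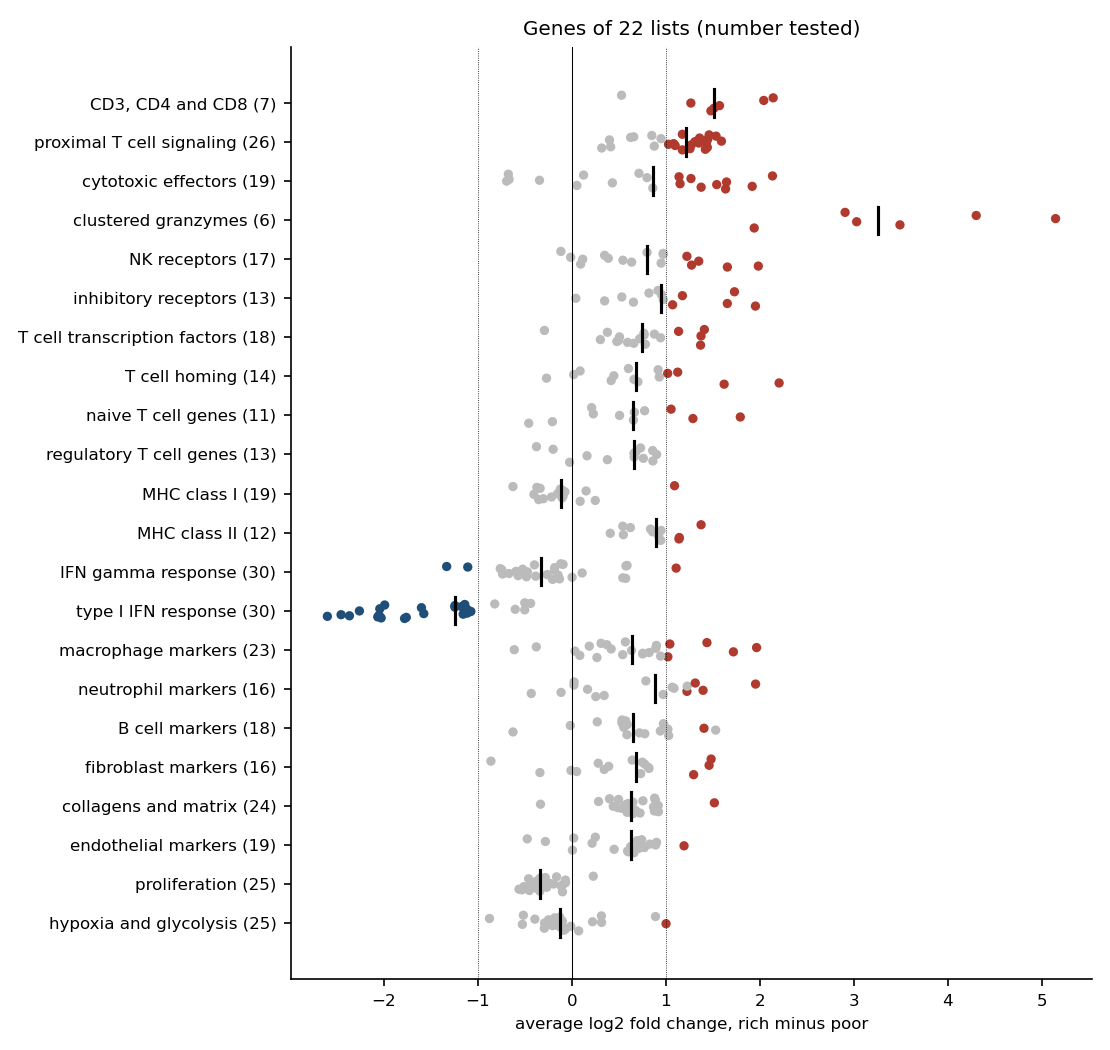
Average log2 fold change (rich minus poor, horizontal axis) of every tested gene of 22 lists, with 1 point per gene, red where called higher, blue where called lower and gray where not called, and a black bar at the list median. Dotted lines mark 2-fold; the CD3, CD4 and CD8 genes have 6 of 7 points in red and the type I IFN list 25 of 30 in blue.

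Genes of the type I IFN response were among the lower genes, as 21 of the 111. Of 30 tested, 25 were called lower against 1.19% of all tested protein coding genes, and 3 passed the test in every pair, with a list median of -1.24. The summed level of the 30 genes ranged from 8391 to 13882 CPM in the d6 tumors, from 2805 to 3326 CPM in the d14 tumors, from 2300 to 3248 CPM in the d10 tumors and from 2004 to 2221 CPM in the anti CTLA-4 d14 tumors. The d6 tumors thus stood apart from all other groups, and the d14 and d10 tumors overlapped. The median of the list was -1.82 for d10 minus d6 and -2.41 for anti CTLA-4 d14 minus d6, but -0.20 for d10 minus d14 and -0.67 for anti CTLA-4 d14 minus d14. Without the d6 tumors, 0 of the 30 were called lower by edgeR's quasi-likelihood test, while 4 were lower at an adjusted p under 0.05 without reaching 2-fold, 16 were lower at an unadjusted p under 0.05, and DESeq2 was not run on those tumors. 

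Rsad2 stood at 1127, 613 and 1714 CPM in the d6 tumors, at 151, 123 and 70.2 CPM in the d14 tumors, at 68.0, 65.5, 153, 69.9 and 85.2 CPM in the d10 tumors and at 64.1, 53.8 and 77.9 CPM in the anti CTLA-4 d14 tumors. Its d14 tumors overlapped the rich tumors, and the log2 fold change was -2.26 ± 0.26 (adjusted p = 4.6e-05, edgeR), with -0.38 for d10 minus d14. Ifit3, whose promoter is printed above, stood at 199, 129 and 315 CPM in the d6 tumors, at 29.8, 25.6 and 25.5 CPM in the d14 tumors, between 17.2 and 36.5 CPM in the d10 tumors and at 15.7, 13.01 and 15.3 CPM in the anti CTLA-4 d14 tumors. Ifit3 followed the same order, with -2.06 ± 0.20 (adjusted p = 1.8e-05, edgeR). Ifit3b (-2.60), Ifit1bl1 (-2.37), Mx1 (-2.05), Usp18 (-2.04), Ifit1 (-2.03), Cmpk2 (-1.99), Ifit2 (-1.76), Oas1g (-1.57) and Irf7 (-1.10) were lower as well. Ifit3 and Ifit3b are close copies, and unique mapping could divide their reads unevenly.

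A few IFN genes were lower than in the d14 tumors too. Ifi44 (chromosome 3, 151730922 to 151749960) stood at 683, 551 and 719 CPM in the d6 tumors and at 206, 195 and 183 CPM in the d14 tumors, against 101, 106, 174, 136 and 111 CPM in the d10 tumors and 105, 106 and 118 CPM in the anti CTLA-4 d14 tumors. All rich tumors were below all poor tumors, by -1.60 ± 0.12 (adjusted p = 1.7e-06, edgeR), with -0.63 for d10 minus d14. Xaf1 (-1.14), an inhibitor of the XIAP protein, and Oas2 (-1.11) were the other members of the list that passed in every pair. Ddx60 (-1.58, named after its values were seen) and the apolipoprotein L genes Apol9a (-1.14) and Apol9b (-1.03), not on the list, did so too. Ddx60 stood between 69.2 and 77.9 CPM in the d14 tumors and between 25.6 and 57.2 CPM in the rich tumors. Apol9a and Apol9b are near-identical copies, and the call of Apol9b went under the threshold without d14 replicate 1 (-0.98) or d6 replicate 3 (-0.97).

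Few genes of the response to IFN gamma passed the 2-fold threshold, and the difference from the type I list was not tested. Of 30 genes 1 was called higher and 2 were called lower, 23 had a negative value, and the median was -0.32. The summed level of these 30 genes ranged from 17249 to 19372 CPM in the d6 tumors, above the 12160 to 16466 CPM of the d10 tumors, the 10900 to 14591 CPM of the d14 tumors and the 11074 to 12087 CPM of the anti CTLA-4 d14 tumors, so the d6 tumors stood highest here too. The chemokines Cxcl10 (-1.11, or -0.89 without d6 replicate 3) and Cxcl11 (-1.33), which both IFN types induce, were called lower but were 0.51 and 0.21 for d10 minus d14 and did not meet the rule. Mx2 (-2.45), another antiviral GTPase, was called but was not a protein coding gene in the annotation. The largest fall among genes with a mean of at least 5 CPM was that of Gc, the vitamin D binding protein made by liver. It stood at 41.6, 32.7 and 33.3 CPM in the d6 tumors, at 1.52, 3.66 and 0.534 CPM in the d14 tumors, between 1.02 and 2.40 CPM in the d10 tumors and between 0.552 and 1.01 CPM in the anti CTLA-4 d14 tumors. Only the d6 tumors were high, and the log2 fold change was -2.89 ± 0.34 (adjusted p = 5.1e-05, edgeR).

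**Figure D3:**
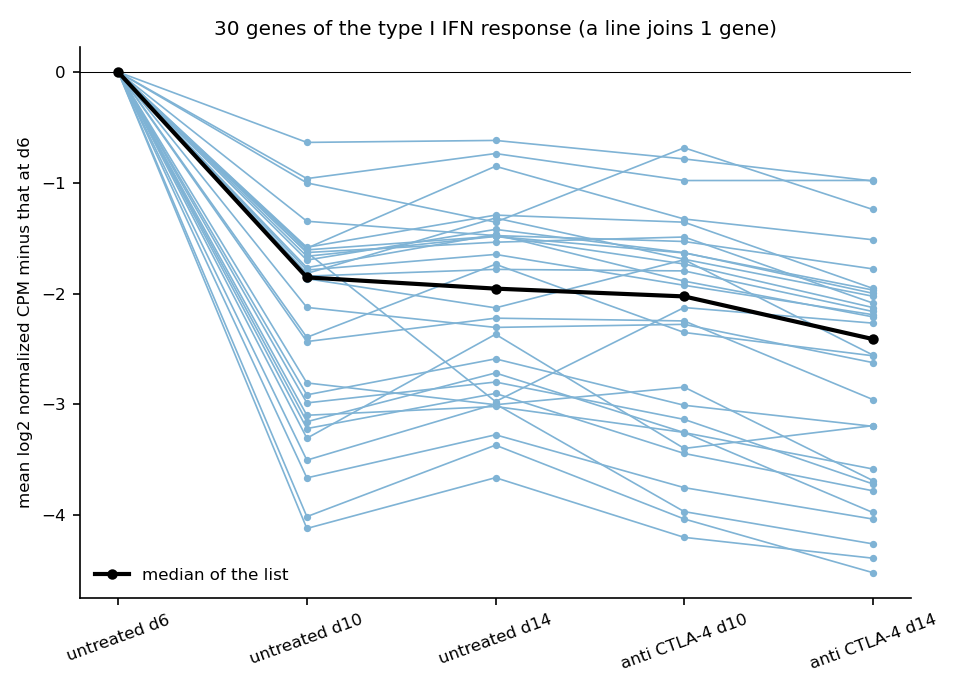
Mean log2 normalized CPM minus that of the d6 tumors (vertical axis) in the 5 groups, with a thin line for each of 30 type I IFN genes and a black line for their median. All 30 genes lie below 0 in the d10, d14, anti CTLA-4 d10 and anti CTLA-4 d14 tumors, with medians of -1.85, -1.96, -2.03 and -2.41.

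The 4 pairs contributed unevenly. Of the 755 higher genes, 211 (27.9%) had an adjusted p under 0.05 in every pair (edgeR's quasi-likelihood test), and of the 111 lower genes 13 (11.7%) did. The pair d10 minus d14 was the weakest for 510 of the higher genes (67.5%) and for 83 of the lower genes (74.8%). The median log2 fold change of the higher genes was 1.25 for d10 minus d6, 0.73 for d10 minus d14, 1.85 for anti CTLA-4 d14 minus d6 and 1.28 for anti CTLA-4 d14 minus d14. That of the lower genes was -1.67, -0.42, -2.16 and -1.01. The 8 rich and 6 poor tumors did not overlap for 176 of the higher genes (23.3%) and 18 of the lower genes (16.2%), against 2.4% and 0.901% of all tested protein coding genes. The genes were chosen on these same tumors, so larger shares than the background follow from the rule and carry no weight. At the threshold, Utf1 (1.001) lay just inside and Dapk2 (0.9999) just outside on the higher side, and Dyrk4 (-1.001) and Ap4b1 (-0.99) on the lower side. There were 167 higher genes between 1 and 1.1, so a large share of them sat near the limit. Of the 866 genes, 561 had a mean below 5 CPM. For 14 of the named genes that met the rule, the sign of d10 minus d14 turned when 1 tumor of those groups was left out. They were Tnc, Gzmg, Gzmd, Gzmn, Klrc1, Cx3cr1, Abca1, Apoe and A2m on the higher side and Usp18, Irf7, Cmpk2, Ifi206 and Gc on the lower side. Without d14 replicate 2 the value of Gc was 0.63, and the other values lay between -0.205 and 0.0881.

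**Figure D4:**
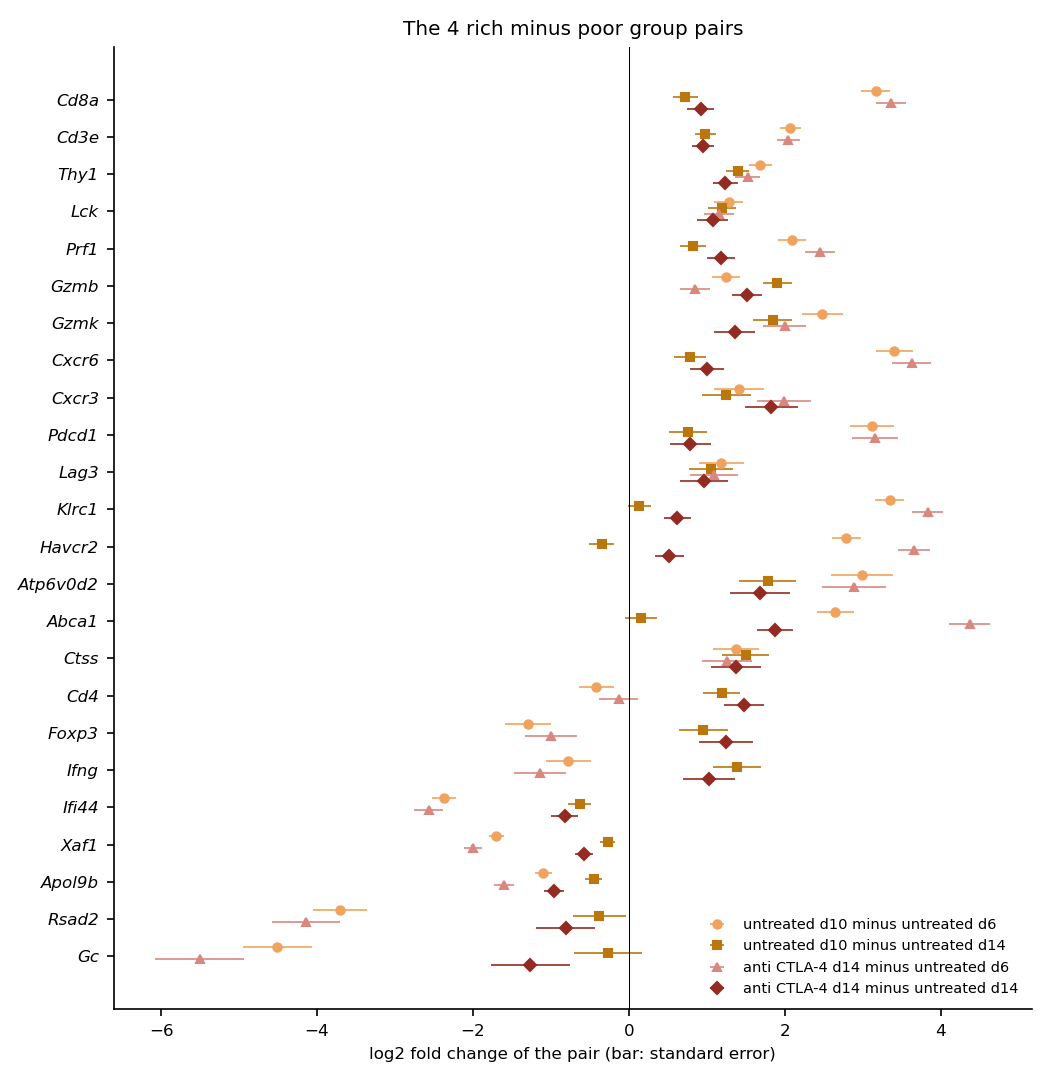
Log2 fold change of genes named in the text (horizontal axis) in each of the 4 pairs of a rich with a poor group, with bars for the standard error. The 4 values of Lck and Ctss lie close together, those of Cd8a and Rsad2 are larger against d6 than against d14, and those of Cd4, Foxp3 and Ifng lie on both sides of 0.

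The rich and poor groups also form pairs that share no tumor. At the same threshold, 823 protein coding genes were higher in d10 than in d6 tumors and 1192 were higher in anti CTLA-4 d14 than in d14 tumors, and 296 were in both (36% and 24.8% of the lists). Of all tested protein coding genes, 8.14% were higher in the second pair and 5.62% in the first. Lower in these pairs were 374 and 133 genes with 30 in both (8.02% and 22.6%), against 0.908% and 2.55% of all tested. With the pairs crossed, 636 genes were higher in d10 than in d14 tumors and 2176 in anti CTLA-4 d14 than in d6 tumors, with 110 in both (17.3% and 5.06%), against 14.9% and 4.34% of all tested. Lower were 308 and 1135, with 10 in both (3.25% and 0.881%), against 7.75% and 2.1%. The share in both was above the background in the first arrangement and close to or below it in the second.

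The difference between the 2 disjoint pairs, anti CTLA-4 d14 minus d14 against d10 minus d6, was tested gene by gene. It was called for 696 protein coding genes (4.75%, edgeR's quasi-likelihood test), among them 44 of the 755 higher genes (5.83%) and 32 of the 111 lower genes (28.8%). For 37 of the 44 and for all 32 the change between d10 and d6 was the larger. Cd8a (-2.24 ± 0.24, adjusted p = 0.00042, edgeR) and Cd8b1 (-2.16) were higher by more between d10 and d6 than between the day 14 groups, as were Pdcd1 (-2.33), Cxcr6 (-2.40), Klrc1 (-2.73) and Gzmg (-5.65). Lck (-0.21 ± 0.26, adjusted p = 0.72, edgeR), Thy1 (-0.45) and Gzmb (0.27) did not pass this test. Among the lower genes Rsad2 (2.89), Ifit3 (2.38), Mx1 (2.38) and Usp18 (2.17) fell by more between d6 and d10.

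**Figure D5:**
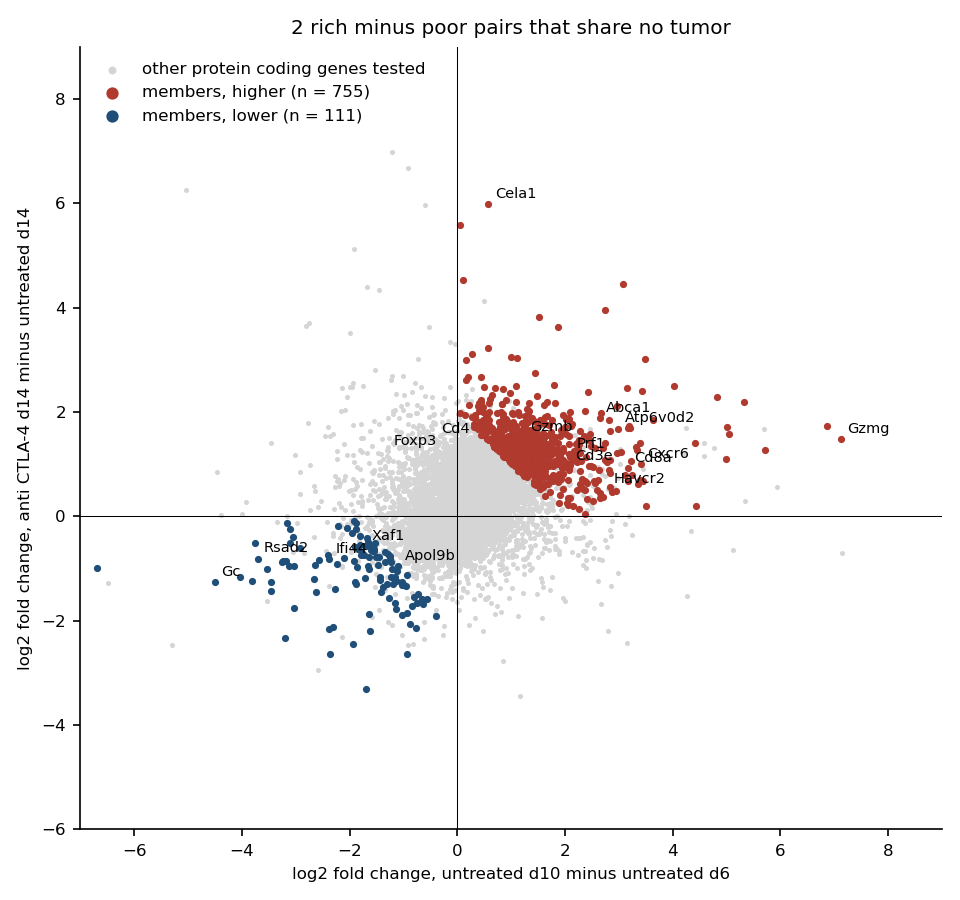
Log2 fold change of protein coding genes for d10 minus d6 on the horizontal axis and for anti CTLA-4 d14 minus d14 on the vertical axis, with 1 point per gene and the higher and lower genes in color. The higher genes lie at upper right and the lower genes at lower left, as the rule requires, and 12 genes lie outside the axes.

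Transcripts of exocrine pancreas moved with 1 rich group. Ctrb1, the precursor of the digestive enzyme chymotrypsin, stood at 1687, 0.758 and 593 CPM in the anti CTLA-4 d14 tumors and at 0.0869 CPM or less in all other tumors. The acinar elastase Cela1 met the rule at 3.28 but stood at 159, 2.502 and 51.5 CPM in the anti CTLA-4 d14 tumors and at 2.29 CPM or less elsewhere, and without anti CTLA-4 d14 replicates 1 and 3 it was 0.85. The summed level of 12 acinar markers ranged from 4.43 to 4385 CPM in the anti CTLA-4 d14 tumors and was at most 2.45 CPM in the other groups. With anti CTLA-4 d14 replicate 2 alone, 621 of the 755 higher genes (82.3%) and 90 of the 111 lower genes (81.1%) met the rule. B cell markers were also uneven, with a summed level from 86.4 to 520.4 CPM in the d10 tumors, from 219 to 398 CPM in the anti CTLA-4 d14 tumors, from 261 to 330 CPM in the d6 tumors and from 79.1 to 181 CPM in the d14 tumors, and 1 of 18 was called, Cd22 (1.41). The part of these transcripts in the other results was not tested beyond the fit with anti CTLA-4 d14 replicate 2 alone. That fit reused libraries that had chosen the genes.

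The other lists differed in how many of their genes were called. Over all tested protein coding genes, 5.97% were called higher and 1.19% lower. Several of these lists, among them the chemokine ligands, lay above those shares, and the difference was not tested. None of 25 proliferation genes was called by edgeR or DESeq2, with a median of -0.33, though 24 had a negative value and 15 were lower at an adjusted p under 0.05 by either tool, short of 2-fold. At an unadjusted p under 0.05 by edgeR 16 were lower. Of 25 hypoxia genes 1 was called. Of endothelial markers 1 of 19, of dendritic cell markers 2 of 18, of mesothelial and AB12 markers 2 of 17 and of complement genes 2 of 19 were called higher. Eosinophil and mast cell markers were called higher for 3 and lower for 1 of 21, resident peritoneal macrophage markers for 1 and 2 of 15, and chemokine ligands for 3 and 4 of 24. None of 8 adipocyte, 6 intestine and 8 red blood cell markers was called by edgeR or DESeq2, with 1, 2 and 2 at an unadjusted p under 0.05 by edgeR. TNF family costimulation genes were called higher for 3 of 16, skeletal muscle markers for 1 of 5 and pancreas acinar markers for 2 of 6, and of 2 liver markers 1 was called in each direction.

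The anti CTLA-4 d10 tumors, which were in neither side, gave values for the same genes. Cd8a stood at 69.7, 57.8 and 58.1 CPM there, Prf1 at 233, 176 and 229 CPM, Gzmg at 538, 360.0 and 449.5 CPM and Pdcd1 at 48.2, 50.4 and 47.5 CPM. All of these were within or above the range of the 8 rich tumors. Foxp3 stood at 0.227, 0.438 and 0.507 CPM, below every tumor of the other 4 groups. Ifi44 stood at 113, 133 and 136 CPM, below both poor groups. Of the 253 higher genes with a mean of at least 5 CPM, 221 (87.4%) lay above the means of both poor groups in these tumors and 81 (32%) reached the nearer rich mean. Of the 52 lower genes, 50 (96.2%) lay below both poor means and 32 (61.5%) reached the nearer rich mean. The untreated groups had served to choose the genes, so the values are a description. The same shares over all tested genes were not computed, so these have no background to be read against. The anti CTLA-4 d10 tumors also shared their day with the d10 tumors and their library set with d10 replicates 4 and 5.

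The rule was also applied against each poor group alone. Set against the d14 tumors alone, 827 genes met the rule on the higher side and 95 on the lower side, and 353 of the 755 (46.8%) and 19 of the 111 (17.1%) were among them. Set against the d6 tumors alone, 1473 and 614 genes did, and 640 (84.8%) and 101 (91%) were among them. Both fits reused libraries that had chosen the genes, so these shares were in part built in. They also rose with the number of genes that met the rule in each fit, and are a description. Of the 7 genes of the CD3, CD4 and CD8 list, 5 were called against the d14 tumors alone. Cd8a (0.88) and Cd3g (0.88) were then short of 2-fold, and Cd4 (1.39) was called. Of 13 inhibitory receptors 2 were called against d14 alone and 10 against d6 alone. The fit against d6 alone called more genes in general, with 1920 higher over all genes against 1084 with both poor groups. Shares over all tested genes were not computed for either fit, so these list counts have no background to be read against.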

How the data were processed

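Mice were BALB/c, and each library came from 1 peritoneal AB12 tumor sample, with at least 3 mice in each group. Where tumors shared a mouse, p-values measure in part the spread within it. Per the study's methods the authors extracted total RNA, prepared paired-end libraries on 2 instruments, aligned reads to GRCm38 (mm10) with TopHat2 2.0.14, kept uniquely mapped reads and counted them per gene with HTSeq on a Gencode annotation. Which instrument read which library and the strand setting are not given in the sources used here. Reads of overlapping genes (Cxcr6 with Fyco1, Foxp3 with Ccdc22, for example) could therefore be lost or counted for the other gene. The deposited file holds raw counts for 55450 genes. Replicates differed by more than counting noise.

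Counts were analysed in R 4.3.3 with edgeR 4.0.16. Genes that passed filterByExpr (18579, of which 14650 protein coding) were scaled by TMM and fitted with 1 mean per group over the 14 libraries of 4 groups, using glmQLFit and glmQLFTest. The contrast, the pairs and the difference between disjoint pairs came from this fit, with Benjamini-Hochberg adjustment. Standard errors were derived from the F statistic of each test. Printed levels are CPM with TMM over all 17 libraries. The fit was tested on simulated data.

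The members and the 37 gene lists were chosen with earlier results of these data known, and 6 further lists were drawn up after seeing values. Named genes were the 12 largest changes in each direction with a mean of at least 5 CPM, a set of T cell genes named whatever their values, up to 4 genes and every member of each list, the 10 smallest adjusted p in each direction and the 6 largest differences between the disjoint pairs. Genes of the further lists and Ddx60 fell outside this rule and were named after their values were seen. No set test was run. Alternatives were DESeq2 1.42.0, no TMM, 2 other filters, all 17 libraries, 8 against 6 libraries, thinned counts, protein coding genes alone, a replicate block, no fold threshold, subsets of the d10 tumors and each library left out. Leaving out either poor group or anti CTLA-4 d14 replicates 1 and 3 was added after seeing the data. Depth limits genes under about 3 counts, and no sample was dropped or imputed.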

Additional observations from a re-analysis of the deposited data

Results flagged for a closer look

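The difference between the disjoint pairs, (anti CTLA-4 d14 minus d14) minus (d10 minus d6), passed an adjusted p of 0.05 and 2-fold by edgeR's quasi-likelihood test for the genes below, in log2 units. Negative values mark genes that were higher by more between d10 and d6.

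Among T cell genes and other receptors described with them, these were Cd8a (-2.24), Cd8b1 (-2.16), Cd3e (-1.12), Cd3g (-1.40), Themis (-1.07), Cd96 (-1.57), Pdcd1 (-2.33), Havcr2 (-2.27), Tox (-2.04), Cxcr6 (-2.40) and Cx3cr1 (-2.70). Cd4 (1.89), Foxp3 (2.54), Ifng (1.81) and Il2ra (1.24) differed in the other direction. Among granzymes and NK type receptors they were Gzmg (-5.65), Gzmd (-4.45), Gzmf (-7.97), Gzme (-3.45), Sytl2 (-1.98), Klrc1 (-2.73), Klrd1 (-1.92) and Klrc2 (-1.41). F13a1 (-1.07) and Mmp12 (-1.77) also had negative values.

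Among IFN genes, which fell by more between d6 and d10, the differences were 2.88 for Ifit3b, 2.20 for Ifit1bl1, 2.89 for Rsad2, 3.25 for Ifi206, 2.38 for Ifit3, 2.38 for Mx1, 3.33 for Mx2 and 2.17 for Usp18. They were 2.32 for Ifit1, 2.09 for Cmpk2, 2.31 for Ifit2, 3.03 for Trim30c, 1.63 for Trim30a, 1.13 for Xaf1, 1.55 for Ifi44, 1.26 for Ddx58, 1.66 for Oas1g, 1.43 for Irf7, 1.31 for Ddx60 and 1.90 for Cxcl10. Gc differed by 3.25. Cela1 (5.40), Gp2 (13.49), Ctrl (7.59), Klk1 (7.05), Ighv7-3 (7.83) and Retnla (6.47) were the genes with large differences, and the first 4 were high in anti CTLA-4 d14 replicates 1 and 3. Where the other groups stood near 0, as for Gp2, the fitted value depends on the prior count of the fit.

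In 1 d10 tumor a level lay far from the other 4 by Dixon's criterion, which chance meets in about 1 in 20 groups. In d10 replicate 3 Rsad2 stood at 153.0, Ifi206 at 3.48, Ifit3 at 36.5, Mx1 at 29.5, Mx2 at 18.6, Ifit1 at 69.2, Ifit2 at 153.3 and Trim30c at 3.52 CPM, so that several IFN genes were high together there. Cd226 stood at 25.7 CPM in that tumor. A2m stood at 26.7 CPM in d10 replicate 4. Ccl4 was at 40.5 CPM in 1 d10 tumor.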

How the results depend on the processing

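Of the counts of genes, 156 stayed within 1.5 times and 39 moved further. Requiring 10 counts in every library gave 590 genes higher and 204 lower, 486 of the higher meeting the rule. As 8 against 6 libraries, 525 were higher and 195 lower, and 463 met the rule. With anti CTLA-4 d14 replicate 2 alone, every-pair counts were 81 and 1, 266 genes were lower and the difference between disjoint pairs was called for 97 genes, with fewer tumors in the fit. With d10 replicates 4 and 5 alone, 1050 genes were lower, 233 met the rule, 53 in every pair, and 2205 differed between disjoint pairs. Without the d6 tumors 556 and 38 passed in every pair. Without the d14 tumors 1920 genes were higher and 1210 lower, 1473 and 614 met the rule, and 1068 and 420 passed in every pair. With protein coding genes alone 183 were lower and 20 passed lower in every pair. Without a fold threshold 2249 and 1301 met the rule. DESeq2 shared 735 of the 755 higher and 110 of the 111 lower genes.

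Leaving out 1 library gave 862 to 1298 genes higher and 334 to 490 lower. It gave 552 (without d14 replicate 2) to 957 (without d14 replicate 3) meeting the rule as higher and 102 to 138 as lower. Every-pair counts ranged from 78 to 321, again without d14 replicates 2 and 3, and from 7 to 32 on the lower side. Differences between disjoint pairs ranged from 424 (without anti CTLA-4 d14 replicate 1) to 1046. Under all the alternatives together, other than those added after seeing the data, 33% of the higher genes and 37.8% of the lower genes met the rule.

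The replicate number did not pair the tumors, since 1 of 18 same-numbered pairs had a correlation above 0.1. With the number as a replicate block 776 and 121 genes met the rule, 241 and 25 in every pair.

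The sign turned for several genes, among them Cxcl10, Gp2, Ctrl and Klk1, which were called but did not meet the rule. Ifng was -0.20 as 8 against 6, -0.22 with d10 replicates 4 and 5 and -0.96 without d14. Retnla was -2.08 as 8 against 6, -1.19 with anti CTLA-4 d14 replicate 2 alone, -0.49 with d10 replicates 4 and 5, -3.27 without d14, and ranged from -0.41 (without anti CTLA-4 d14 replicate 1) to 1.08 with 1 library left out. Foxp3 was 0.0525, 0.0078, 0.0184 and 1.16 with anti CTLA-4 d14 replicate 2 alone, d10 replicates 4 and 5, no TMM and no d6 tumors, and ranged from -0.1154 to 0.2057 with 1 library left out. Gp2 (-0.63), Ctrl (-0.33) and Klk1 (-0.42) turned with anti CTLA-4 d14 replicate 2 alone, Tox (-0.14) and Cxcl10 (0.24) without d6, and Cd4 (-0.27) and Ighv7-3 (-0.60) without d14. The causes were not tested. Depth limits genes with few counts.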
